A study of Homo sapiens with 6 samples.

Results

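The levels of 10 genes known from the fetal liver, from imprinted loci and from liver tumours were compared: AFP, H19, IGF2, the RNA-binding protein genes IGF2BP1, IGF2BP2 and IGF2BP3, DLK1, LIN28B, PEG10 and SALL4. The members were taken by name. Of the 10 names, 8 had a row among the 35856 genes of the table, and the expression of DLK1 and LIN28B was not analysed here. The cells were HCCLM3, a human hepatocellular carcinoma line of high metastatic potential, transfected either with a vector that carries the long noncoding RNA LINC00862 (group LINC00862, 3 libraries) or with the empty vector (group NC, 3 libraries). By the labels, the groups shared the line. The control is labelled NC, and it was taken here to be the empty vector of the treatment protocol, so that the groups would differ by the insert. The study's question was which transcripts change when LINC00862 is overexpressed, and the values given here are differences between the libraries labelled LINC00862 and those labelled NC. The sources used here do not say whether the libraries of a group came from separate cultures, so the p-values measure only the spread between these libraries, which may be technical.

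Oncofetal genes are active in the fetal liver, silent or nearly silent in the adult liver, and often active again in hepatocellular carcinoma, where α-fetoprotein serves as a serum marker. Imprinted genes are expressed mainly from the maternal or the paternal copy. IGF2 and H19 share enhancers on chromosome 11 and are expressed from opposite parental copies, and PEG10 lies head to head with SGCE on chromosome 7 and is expressed from the paternal copy. LIN28B blocks maturation of the let-7 microRNAs, which bind the transcripts of several oncofetal genes, IGF2BP1 among them, through a shared seed.

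The let-7 family is shown because its seed is the feature by which oncofetal transcripts are commonly grouped. RefSeq (GRCh38.p14) listed 9 mature names, let-7a to let-7g, let-7i and miR-98, with the same seed, and mature miR-675 lies inside the H19 transcript. In the sequences, 5′ to 3′, capitals mark bases 2 to 8.
hsa-let-7a-5p: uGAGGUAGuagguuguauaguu
hsa-let-7b-5p: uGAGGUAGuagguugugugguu
hsa-let-7g-5p: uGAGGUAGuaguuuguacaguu
hsa-miR-675-5p: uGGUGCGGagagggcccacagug
hsa-miR-675-3p: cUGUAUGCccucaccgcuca

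The complement of the let-7 seed, CTACCTC, was looked for in the 3′ untranslated region of the longest coding GENCODE 29 transcript of each gene, on the strand of the transcript. It occurred 4 times in IGF2BP1, once each in IGF2BP2, IGF2BP3 and SALL4, and 4 times in LIN28B. It did not occur in the transcripts of AFP, IGF2, DLK1 and PEG10, and H19 has no coding transcript. Of 19659 genes read in the same way, 9.16% held the letters, and of 882 genes whose untranslated region was of like length to that of IGF2BP1 (6206 bases), 29.8% held them and 0.567% held them at least as often. The sites are printed with 8 bases on each side, in GRCh38 coordinates, with the matching letters in capitals.
IGF2BP1, chr17:49051068-49051090, plus strand: gaagtaaaCTACCTCaaggtatg
IGF2BP1, chr17:49053705-49053727, plus strand: gctagtaaCTACCTCacagagcc
IGF2BP1, chr17:49054359-49054381, plus strand: tggattaaCTACCTCaatcctta
IGF2BP1, chr17:49055004-49055026, plus strand: tgttttatCTACCTCttagcaaa
IGF2BP2, chr3:185644213-185644235, minus strand: agaagaagCTACCTCaggtgttt
IGF2BP3, chr7:23311788-23311810, minus strand: ttactcaaCTACCTCaggtattc
SALL4, chr20:51782916-51782938, minus strand: taatttatCTACCTCatttattt
In IGF2BP1, 3 of the 4 matches were followed by an A, as were those of IGF2BP2, IGF2BP3 and SALL4. A match is a description of the sequence. The libraries were made from RNA captured on oligo(dT), so mature microRNAs were not measured.

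The libraries held between 58241123 and 68229070 counts. LINC00862 itself was counted 11, 21 and 6 times in the NC libraries and 145, 121 and 76 times in the LINC00862 libraries, a log2 fold change of 3.22 ± 0.53 (SE, edgeR adjusted p = 0.000583). Its mean FPKM (mapped fragments scaled by transcript length and sequencing depth) was 0.0507 in NC and 0.449 in LINC00862, low in both. On the same chromosome as LINC00862 (chr1:200253419-200374688), the gene NR5A2 (chr1:200027614-200175603) rose too. It had 0 counts in each NC library and 128, 188 and 190 in the LINC00862 libraries. Whether the LINC00862 counts came from the vector or from the chromosome was not tested. Spearman correlations of FPKM were 0.896 to 0.909 within the groups and 0.754 to 0.767 between them. The 10 most abundant genes took 8.42% to 11.7% of the counts in NC and 19.4% to 29.2% in LINC00862. Of the 20741 genes with enough counts to be tested, 64.2% passed edgeR's quasi-likelihood test at an adjusted p of 0.05, 34.4% higher and 29.8% lower in LINC00862, and the FPKM of 71.1% did not overlap between the groups. The median log2 fold change over all tested genes was 0.11 with the quartiles at -0.89 and 1.55, and it lay at 0.32 after upper-quartile scaling and at -0.05 after scaling by library size only. The summed FPKM of 14 hepatocyte markers was 8.01 to 8.49 in NC, where APOA2, APOH and TTR were among those at 0 in every library, and 1800 to 2212 in LINC00862, and of the 11 tested 9 were higher and 2 lower. The labels call the cells hepatoma cells, but nearly all of the sum in LINC00862 came from the fibrinogen genes FGA (796 FPKM), FGB (550.4 FPKM) and FGG (627 FPKM), and outside these, TF and ALB every marker had a group mean below 1 FPKM there. The summed FPKM of 12 mesenchymal markers was 766 to 803 in NC and 15.7 to 20.5 in LINC00862, with 1 higher, 10 lower and 1 not past the test. VIM, which codes for the mesenchymal filament vimentin, went from 539 ± 50.1 to 3.77 ± 0.102 FPKM (SD, n = 3). With marker differences of this size, whether both groups were the same line was not tested, and a difference between the cells of the groups cannot be told apart from an effect of LINC00862 in any fold change given here.

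Of the 8 genes listed, 7 had enough counts to be tested and 6 passed, beside 64.2% of all tested genes: H19 and SALL4 were higher in LINC00862, and PEG10, IGF2BP1, IGF2BP2 and AFP were lower. The FPKM ranges of those 6 genes lay apart, beside 71.1% of all tested genes. The median log2 fold change of the 7 was -2.25, beside 0.11 for all tested genes. Only PEG10, IGF2BP1, IGF2BP2 and IGF2BP3 reached a mean of 1 FPKM in either group, and AFP, H19, IGF2 and SALL4 stayed below it in both. In bulk RNA, fewer cells that express a gene and less of its RNA per cell cannot be told apart.

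**Figure D1:**
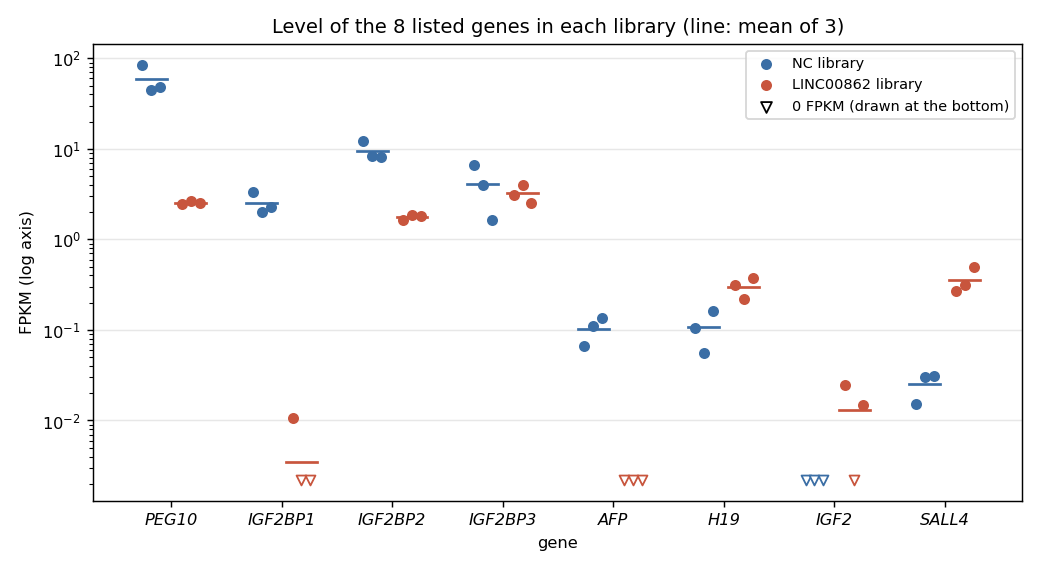
FPKM of the 8 listed genes on a log axis, with 1 point for each of the 3 NC (blue) and 3 LINC00862 (red) libraries, a line at the mean of each group, and open triangles at the bottom for values of 0. PEG10, IGF2BP1, IGF2BP2 and AFP lie lower in all LINC00862 libraries, H19 and SALL4 lie higher, and the points of IGF2BP3 overlap.

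PEG10 was the most abundant of these genes in NC and fell 20.3-fold, to below the mean of IGF2BP3 in LINC00862. It is an imprinted gene derived from a retrotransposon, whose gag-like protein is needed for placental development and which is often raised in hepatocellular carcinoma. PEG10 (ENSG00000242265, chr7:94656325-94669695, plus strand, hg38) was at 85.0, 44.7 and 48.2 FPKM in the NC libraries, from 37644, 19528 and 21497 counts, and at 2.43, 2.65 and 2.55 FPKM in the LINC00862 libraries, from 1243, 1172 and 1144 counts. The groups were far apart, the lowest NC library lying well above the highest LINC00862 library, and the first NC library stood above the other NC libraries. The means were 59.3 ± 22.3 and 2.54 ± 0.110 FPKM (SD, n = 3), and the log2 fold change was -4.35 ± 0.24 (SE, edgeR adjusted p = 8.02e-07). The exact two-sided permutation test on FPKM gave p = 0.1, the smallest that 3 libraries against 3 allow.

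Neighbouring genes of PEG10 did not share one direction. SGCE, the ε-sarcoglycan gene that is imprinted with PEG10 and overlaps it on the opposite strand, was at 3.19, 3.22 and 2.62 FPKM in NC and at 0.728, 0.626 and 0.542 FPKM in LINC00862, a log2 fold change of -2.07 ± 0.16 (edgeR adjusted p = 5.05e-06). The log2 ratio of PEG10 to SGCE, on FPKM + 0.1, was 4.20 ± 0.472 in NC and 1.86 ± 0.224 in LINC00862 (SD, n = 3, exact permutation p = 0.1), without overlap. TFPI2, a protease inhibitor gene, rose by a log2 fold change of 2.85, and PPP1R9A, which codes for an actin-binding scaffold, rose by 1.3. CASD1, a sialic acid acetyltransferase gene, had a log2 fold change of 0.15 (edgeR adjusted p = 0.578), and COL1A2, a collagen gene, had one of -0.21 (edgeR adjusted p = 0.584). By the distance of log2(FPKM + 0.1) over the 6 libraries, the tested genes whose levels were most like those of PEG10 were THBS1, which codes for thrombospondin (0.454), and MSN, which codes for moesin (0.729).

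**Figure D2:**
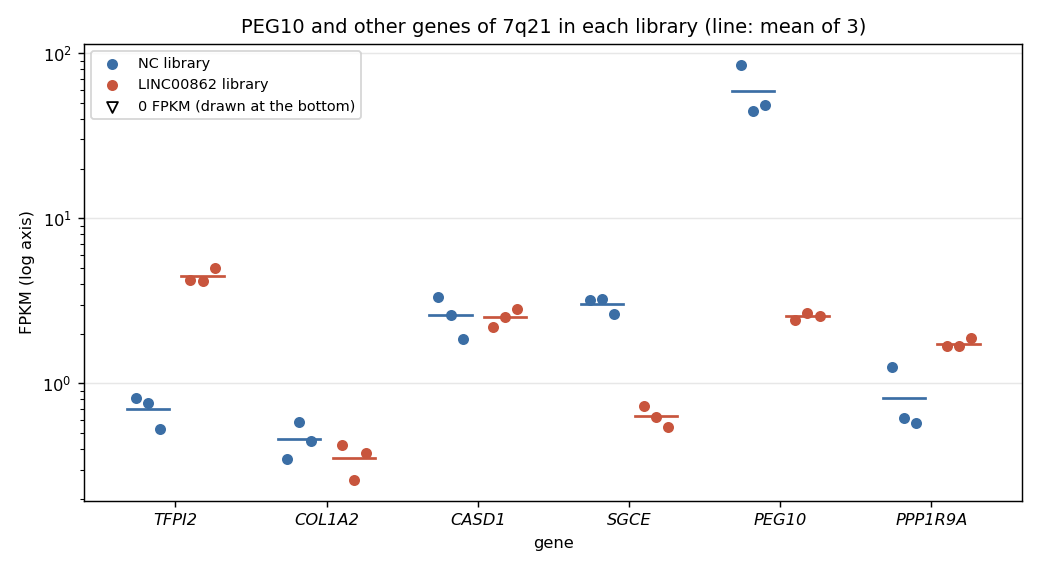
FPKM on a log axis of PEG10 and of 5 other genes of its chromosome region, in genomic order, with 1 point for each library (NC blue, LINC00862 red) and a line at the group mean. PEG10 and SGCE lie lower in all 3 LINC00862 libraries, TFPI2 and PPP1R9A lie higher, and COL1A2 and CASD1 overlap.

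The IGF2BP genes code for related proteins that bind and stabilise transcripts, many of them carrying N6-methyladenosine, and that are made in the embryo and in tumours. IGF2BP1 fell to the edge of detection, IGF2BP2 fell 4.74-fold, and IGF2BP3 did not pass the test. IGF2BP1 (ENSG00000159217, chr17:48997385-49056145, plus strand) was at 3.36, 2.00 and 2.26 FPKM in NC, from 2144, 1260 and 1451 counts. In the LINC00862 libraries it had 8, 0 and 0 counts, which are 0.0105, 0 and 0 FPKM. The fitted log2 fold change was -9.09 ± 0.66 (SE, edgeR adjusted p = 4.01e-06), and the exact permutation test on FPKM gave p = 0.1. The counts of the LINC00862 libraries are so low that the size of this change rests on the prior of the fit, while the groups do not overlap. A transcript named AC091133 lies within IGF2BP1 on the same strand and went from 22, 42 and 36 counts to 0 in each LINC00862 library, so its reads cannot be told apart from those of IGF2BP1. The tested genes with the levels most like those of IGF2BP1 over the 6 libraries were the transcript AL354766 (distance 0.215) and FGF5, a growth factor gene (0.221).

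IGF2BP2 (ENSG00000073792, chr3:185643130-185825042, minus strand) was at 12.3, 8.33 and 8.16 FPKM in NC, from 4348, 2904 and 2908 counts. In LINC00862 it was at 1.64, 1.86 and 1.81 FPKM, from 672, 658 and 649 counts, and the LINC00862 libraries lay closer to each other than the NC libraries did. The means were 9.60 ± 2.35 and 1.77 ± 0.114 FPKM (SD, n = 3), with a log2 fold change of -2.25 ± 0.17 (SE, edgeR adjusted p = 6.01e-06). IGF2BP2-AS1 overlaps the gene on the opposite strand, and whether strand was used in counting is not given in the sources used here.

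IGF2BP3 (ENSG00000136231, chr7:23310209-23470491, minus strand) was at 6.71, 4.0 and 1.64 FPKM in NC, from 3801, 2236 and 938 counts, and at 3.11, 4.01 and 2.55 FPKM in LINC00862, from 2035, 2265 and 1467 counts. The NC libraries lay on both sides of the LINC00862 libraries. The log2 fold change was -0.16 ± 0.38 (SE, edgeR adjusted p = 0.741), with an interval from -0.91 to 0.60, which leaves room for changes of moderate size in either direction. Its sign turned to 0.065 with upper-quartile scaling and to 0.32 without the first NC library, and it did not pass the test in either fit. MALSU1 overlaps IGF2BP3 on the opposite strand, with 2034, 3153 and 3530 counts in NC and 1635, 1217 and 1398 in LINC00862. As the use of strand in counting is not given, reads from the overlap may have entered the level of IGF2BP3 and its share.

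The make-up of the family changed as its total fell. In percent of the summed FPKM of the 3 paralogs, IGF2BP1 took 15.0, 14 and 18.7 in the NC libraries and 0.221, 0 and 0 in the LINC00862 libraries. IGF2BP2 took 55.0, 58.1 and 67.7 in NC and 34.5, 31.7 and 41.5 in LINC00862. IGF2BP3 took 30.0, 27.9 and 13.6 in NC and 65.3, 68.3 and 58.5 in LINC00862, so that it led in every LINC00862 library and in none of NC, without a detected change of its own level. The summed FPKM was 22.4, 14.3 and 12.1 in NC and 4.76, 5.87 and 4.37 in LINC00862. None of the shares, nor the sum, overlapped between the groups, and each exact two-sided permutation test gave p = 0.1. These values follow from the levels already given and are no separate evidence.

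**Figure D3:**
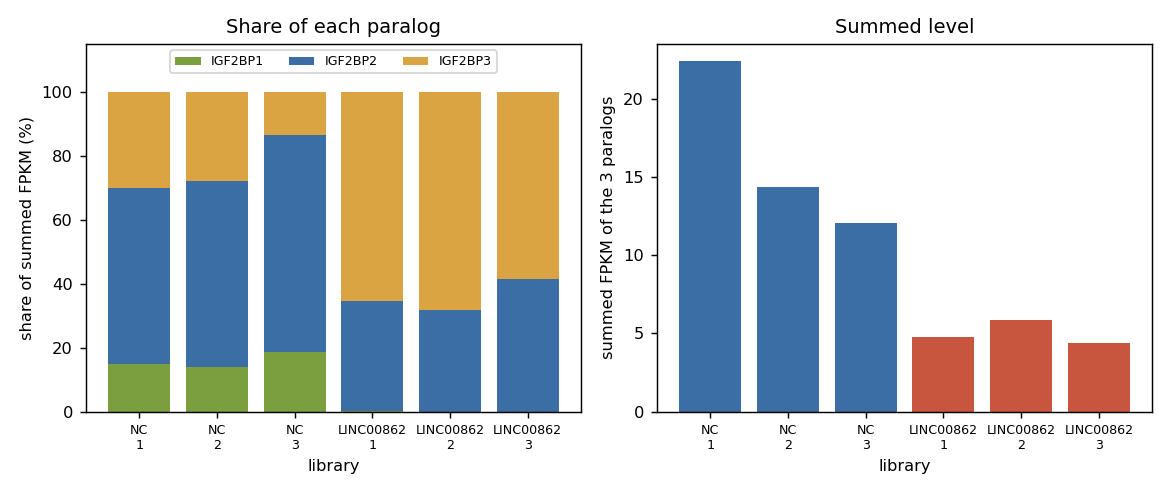
Left, the share of IGF2BP1 (green), IGF2BP2 (blue) and IGF2BP3 (yellow) in their summed FPKM, in percent, for each library. Right, the summed FPKM in NC (blue) and LINC00862 (red). IGF2BP3 holds at most 30.0% in NC and at least 58.5% in LINC00862, and the lowest NC sum is 12.1 against a highest LINC00862 sum of 5.87.

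The promoters of IGF2BP2 and IGF2BP3 differ in base composition, and no window was given for IGF2BP1. RefSeq's promoter windows (GRCh38.p14, 250 bases before to 50 after the start) held 38 CpG dinucleotides at the main start of IGF2BP2, where 90.1% of 35116 windows hold fewer, 3 at a second start of IGF2BP2, and 17 at IGF2BP3, where 54.0% hold fewer. The median window held 14. Capitals mark CpG, and methylation was not measured.
IGF2BP2, chr3:185824993-185825292, minus strand: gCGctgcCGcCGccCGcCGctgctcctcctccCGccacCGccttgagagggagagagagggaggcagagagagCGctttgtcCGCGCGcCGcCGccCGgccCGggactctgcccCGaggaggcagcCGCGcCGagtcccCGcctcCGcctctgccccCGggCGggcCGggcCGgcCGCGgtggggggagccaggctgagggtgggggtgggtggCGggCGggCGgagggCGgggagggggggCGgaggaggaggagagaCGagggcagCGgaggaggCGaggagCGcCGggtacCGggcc
IGF2BP3, chr7:23470442-23470741, minus strand: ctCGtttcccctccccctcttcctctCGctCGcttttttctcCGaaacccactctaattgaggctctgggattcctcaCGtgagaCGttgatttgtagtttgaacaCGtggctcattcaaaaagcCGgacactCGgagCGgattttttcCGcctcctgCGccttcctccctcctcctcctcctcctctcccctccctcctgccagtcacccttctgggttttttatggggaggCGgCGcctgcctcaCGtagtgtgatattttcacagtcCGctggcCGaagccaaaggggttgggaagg

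AFP, which codes for the main plasma protein of the fetal liver, was low in NC and not counted in LINC00862. AFP (ENSG00000081051, chr4:73431138-73455743, plus strand) had 14, 24 and 30 counts in the NC libraries, or 0.0660, 0.111 and 0.135 FPKM, and 0 counts in each LINC00862 library. Against a floor of 3 counts per library it was at least 7.90-fold lower in LINC00862, and it passed edgeR's test (adjusted p = 0.00121). With a mean of 0.104 ± 0.0348 FPKM (SD, n = 3) in NC, AFP was near the limit of what these libraries detect in both groups. Closest to AFP in level over the libraries were GYG2P1, on chromosome Y (distance 0.192), and GCOM1 (0.218), both as low as AFP. GYG2P1 had 28, 32 and 52 counts in the NC libraries and 0 in each LINC00862 library, and the cause was not tested.

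ALB, the albumin gene that stands next to AFP and descends from the same ancestor, went the other way, from 0.00780 ± 0.0135 to 1.51 ± 0.264 FPKM (SD, n = 3, log2 fold change 7.29 ± 0.82, edgeR adjusted p = 6.01e-05). The log2 ratio of AFP to ALB, on FPKM + 0.1, was 0.91 ± 0.172 in NC and -4.0 ± 0.248 in LINC00862 (SD, n = 3, exact permutation p = 0.1), without overlap, and the difference of -4.91 became -10.1 with a pseudocount of 0.01 and -1.45 with 1. Of the 14 genes of the AFP locus and its control, 12 were tested, of which 10 rose, none fell and 2 did not pass, with a median log2 fold change of 6.05 beside 0.11 for all tested genes. Among its activators, FOXA2 rose from 0.00706 to 6.22 FPKM, and NR5A2, a nuclear receptor gene at 0 in every NC library, was at least 54.4-fold higher. ZHX2, a postnatal repressor of AFP and H19 chosen here after its values were seen, rose from 1.51 ± 0.404 to 4.98 ± 0.930 FPKM (SD, n = 3, log2 fold change 1.9, edgeR adjusted p = 5.02e-05). The repressors ZBTB20 (log2 fold change 0.09, edgeR adjusted p = 0.891) and ZFHX3 (log2 fold change 0.23, edgeR adjusted p = 0.406) did not pass the test. The summed hepatocyte markers moved with this list, which has ALB and HNF4A among the genes in common with them, and their part was not tested.

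The AFP window is shown for its low CpG content. It held 1 CpG, and 3.96% of all windows held fewer. It also held the letters TATAAA, searched on the sense strand and printed in capitals, 29 bases before the start. TATAAA was present in 7.33% of all windows.
AFP, chr4:73435971-73436270, plus strand: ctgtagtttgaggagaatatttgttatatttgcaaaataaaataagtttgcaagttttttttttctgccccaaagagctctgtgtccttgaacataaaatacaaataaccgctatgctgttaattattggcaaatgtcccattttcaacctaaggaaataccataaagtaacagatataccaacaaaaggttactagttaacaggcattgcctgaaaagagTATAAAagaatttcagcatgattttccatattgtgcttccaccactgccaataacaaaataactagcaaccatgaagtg

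SALL4, a zinc finger factor of the early embryo and of aggressive liver tumours, rose from a trace to a low level. SALL4 (ENSG00000101115, chr20:51782331-51802521, minus strand) had 6, 12 and 12 counts in NC, or 0.0152, 0.0300 and 0.0308 FPKM, and 122, 120 and 191 counts in LINC00862, or 0.272, 0.310 and 0.492 FPKM. Every LINC00862 library lay above every NC library. The log2 fold change was 3.95 ± 0.49 (SE, edgeR adjusted p = 0.000117), a 15.4-fold difference, with an exact permutation p = 0.1 on FPKM. ATP9A, a phospholipid flippase gene 13941 bases away, rose as well (log2 fold change 3.11), while ZFP64, a zinc finger gene on the other side, had a log2 fold change of -0.13 (edgeR adjusted p = 0.566).

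H19 and IGF2, the imprinted pair, were both at trace level. H19 (ENSG00000130600, chr11:1995176-2001470, minus strand), a noncoding RNA that is among the most abundant transcripts of the fetal liver, had 21, 11 and 33 counts in NC, or 0.106, 0.0558 and 0.163 FPKM. In LINC00862 it had 71, 44 and 74 counts, or 0.313, 0.219 and 0.373 FPKM. The groups did not overlap, but the highest NC library came close to the lowest LINC00862 library. The log2 fold change was 1.64 ± 0.52 (SE, edgeR adjusted p = 0.0208), a 3.11-fold difference. The call rests on single libraries: without the second NC library the log2 fold change was 1.33 (adjusted p = 0.0590), without the first LINC00862 library 1.64 (adjusted p = 0.0559), and without the third 1.41 (adjusted p = 0.0798).

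IGF2 (ENSG00000167244, chr11:2129112-2141238, minus strand), the fetal growth factor gene, had 0 counts in each NC library and 12, 0 and 7 counts in the LINC00862 libraries. These counts were too few for the test, and the exact permutation test on FPKM gave p = 0.4. The log2 ratio of IGF2 to H19, on FPKM + 0.1, was -1.03 ± 0.377 in NC and -1.82 ± 0.200 in LINC00862 (SD, n = 3, exact permutation p = 0.1), a difference of -0.79 that became -0.44 with a pseudocount of 0.01 and -0.21 with 1. IGF2 was close to 0 in both groups. Of the receptor and adaptor genes of IGF2, 5 were tested, of which 2 rose and 2 fell. IRS2, an adaptor of the insulin receptor, rose from 4.30 ± 1.33 to 19.8 ± 0.977 FPKM (SD, n = 3), and INSR, the receptor itself, rose by a log2 fold change of 1.3. IRS1, the other adaptor, fell from 4.08 ± 1.83 to 0.280 ± 0.109 FPKM (SD, n = 3), and IGF2R, which clears IGF2 from the cell surface, had a log2 fold change of -1.80. IGF1R, the main receptor of IGF2, had one of 0.31 (edgeR adjusted p = 0.202).

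**Figure D4:**
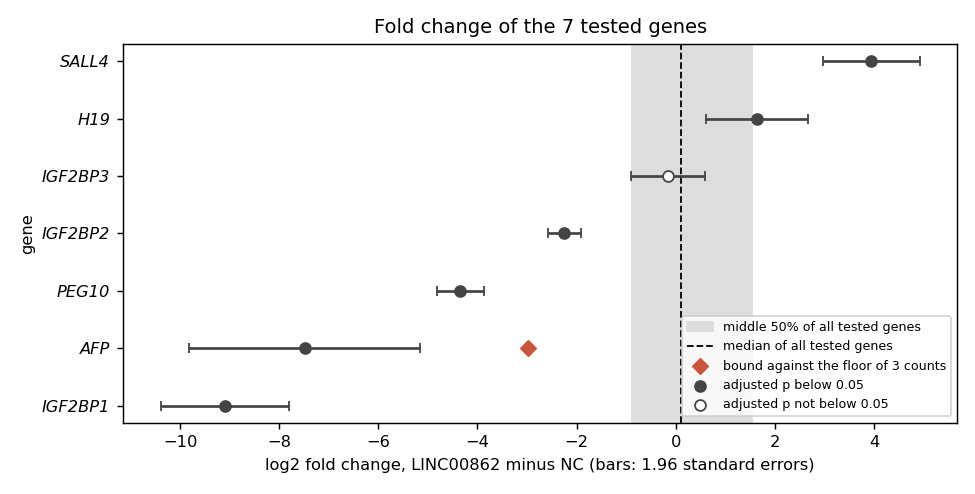
Log2 fold change (LINC00862 minus NC) of the 7 tested genes with confidence intervals as bars, filled where the adjusted p is below 0.05, beside the median (dashed) and the middle 50% of all tested genes (grey). The diamond is the bound for AFP against the floor of 3 counts, and IGF2BP3, at -0.16, is the open point.

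Related genes were read in 13 lists by role. Of 10 tested genes of LIN28 and let-7 processing, 3 rose and 4 fell (median log2 fold change -0.39). DIS3L2, which degrades uridylated let-7 precursors, rose by 0.87, and DROSHA, the nuclear microRNA processor, rose by 0.75. Of the let-7 host transcripts that reached a mean of 1 FPKM in either group, MIRLET7A1HG rose by 0.78 and MIRLET7BHG fell by 2.40. Of 10 tested let-7 target genes, 1 rose and 7 fell (median -1.31), among them THBS1, which fell by 4.49, NRAS, a GTPase of growth signalling, which fell by 1.87, and CDC25A, a cell cycle phosphatase, which fell by 1.71. HMGA1, a chromatin protein gene, rose by 0.69, the 1 gene of the list to do so. With DESeq2 and with upper-quartile scaling 2 genes of the list rose, and with scaling by library size only none did. All these values are log2 fold changes from the edgeR fit, and a list is read against 34.4% higher and 29.8% lower among all tested genes.

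The other imprinted genes went both ways. Of 9 tested neighbours of the imprinted members, 4 rose and 3 fell, and of 13 tested imprinted genes elsewhere in the genome, 5 rose and 6 fell, with median log2 fold changes of 0.15 and -0.34. With scaling by library size only, the former median turned to -0.031 and 2 of the 13 rose, while 6 rose with DESeq2 and with upper-quartile scaling. SNRPN, a splicing protein gene of the Prader-Willi region, fell from 10.2 ± 1.54 to 0.0697 ± 0.0207 FPKM (SD, n = 3). MEST, a hydrolase-like gene, went from 23.5 ± 2.83 to 10.2 ± 1.09 FPKM (SD, n = 3), a log2 fold change of -1.03. PLAGL1 and NAP1L5 fell further than MEST, with log2 fold changes of -1.82 and -1.29. SLC22A3, an organic cation transporter gene, went from 0.00608 ± 0.0105 to 1.21 ± 0.0506 FPKM (SD, n = 3). Among 8 tested genes that maintain imprints, 1 rose and 4 fell (median -0.67). UHRF1, which recruits DNA methyltransferase to replicating DNA, had a log2 fold change of -3.66, DNMT1, the maintenance methyltransferase, one of -1.44, and DNMT3A, a de novo methyltransferase, one of 1.41. CTCF, the insulator protein of the IGF2 and H19 locus, had a log2 fold change of -0.14 and did not pass.

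Of 20 tested IGF2BP partners and N6-methyladenosine genes, 2 rose (1 with scaling by library size only, 3 with upper-quartile scaling) and 11 fell (median log2 fold change -0.59). YBX1, which works with the IGF2BP proteins on transcripts, went from 349 ± 48.0 to 81.3 ± 0.630 FPKM (SD, n = 3), WTAP, a subunit of the methyltransferase complex, had a log2 fold change of -1.83, and FTO, a demethylase, one of 1.47. Of 14 tested genes that, like PEG10, derive from gag genes, 3 rose and 9 fell (median -1.34). PNMA2 fell from 10.2 ± 3.50 to 0.0539 ± 0.0234 FPKM (SD, n = 3), and RTL8C, on the X chromosome, went from 89.8 ± 22.5 to 11.6 ± 1.13 FPKM (SD, n = 3). The RTL8 genes are near-identical copies, so their reads may have been split between them.

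Of 14 tested genes of the SALL family and of NuRD, the histone deacetylase complex that SALL4 recruits, 1 rose and 11 fell (median log2 fold change -0.81). SALL2, a paralog of SALL4, had a log2 fold change of -4.66, HDAC2 one of -2.85, HDAC1 one of -1.85, and GATAD2B, the member that rose, one of 1.55. Of 9 pluripotency genes, 6 had a row and 3 were tested. NANOG, PRDM14 and ZFP42 had no row, and TDGF1, DPPA4 and LIN28A had no count in NC and too few in LINC00862 to be tested. Of the 3 tested, SOX2 rose from 0.0117 ± 0.0203 to 5.04 ± 0.226 FPKM and KLF4 from 4.76 ± 0.466 to 12.2 ± 0.521 FPKM (SD, n = 3). POU5F1, named after its values were seen, went from 0.472 ± 0.149 to 0.140 ± 0.0298 FPKM. All 3 passed the test. Of 4 tested genes of the DLK1 family, its receptors and its shedding, 2 fell and none rose. DLK2, the paralog of DLK1, fell by 2.34 on the log2 scale and NOTCH2, a receptor, by 2.09. NOTCH1, also a receptor (log2 fold change 0.02, edgeR adjusted p = 0.943), and ADAM17, of the shedding part (-0.39, edgeR adjusted p = 0.186), did not pass.

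Among the members, H19 and SALL4 rose while AFP, PEG10, IGF2BP1 and IGF2BP2 fell, and other oncofetal and progenitor genes mostly rose. Of 9 tested, 7 rose and 2 fell (median log2 fold change 4.78). SPINK1, a trypsin inhibitor secreted by tumours, went from 0.222 ± 0.0788 to 90.3 ± 7.17 FPKM, EPCAM, an adhesion protein of hepatic progenitors, from 0.547 ± 0.0819 to 160 ± 10.8 FPKM, and CEACAM5, the carcinoembryonic antigen, from 0.125 ± 0.00347 to 30.7 ± 5.69 FPKM (SD, n = 3). SOX9, a factor of bile duct progenitors, went from 13.2 ± 2.24 to 0.625 ± 0.130 FPKM, and MDK, the growth factor midkine, from 5.59 ± 1.26 to 0.476 ± 0.146 FPKM (SD, n = 3). GPC3, a cell surface proteoglycan and serum marker of liver cancer, had no count in NC and too few in LINC00862 to be tested. The summed FPKM of 13 epithelial markers, EPCAM and KRT19 being in both lists, moved with these rises, lying at 249 to 354 in NC and at 579 to 709 in LINC00862, with 10 higher, 1 lower and 2 not past the test, and its part was not tested.

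**Figure D5:**
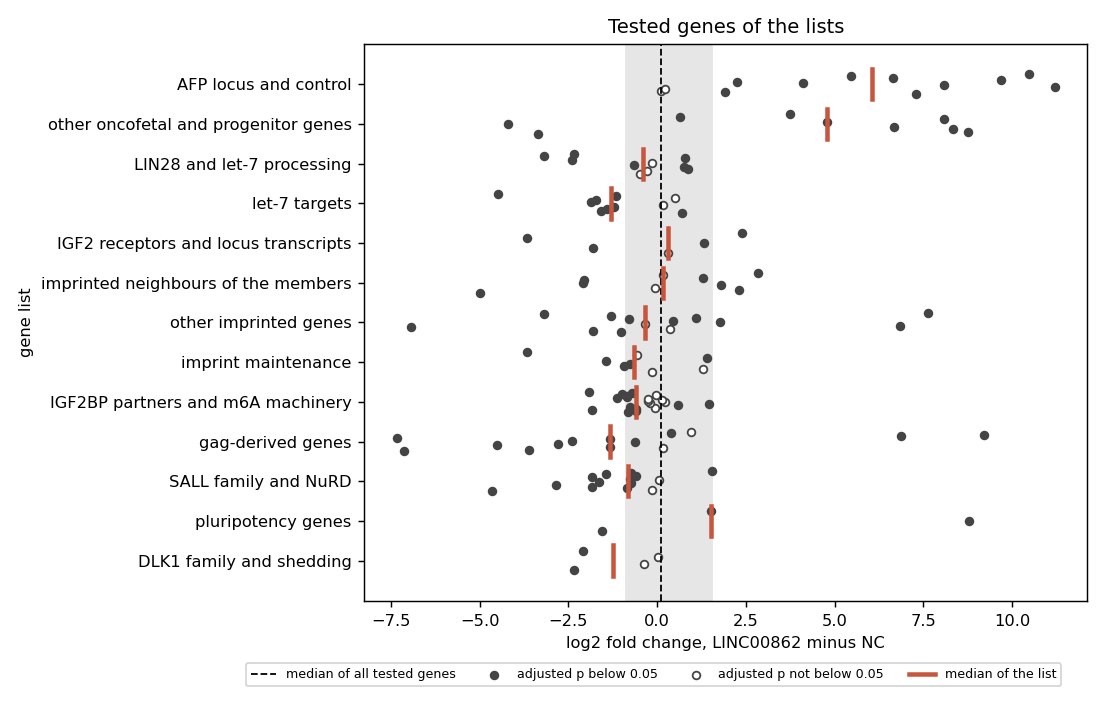
Log2 fold change (LINC00862 minus NC) of each tested gene of the 13 lists, filled where the adjusted p is below 0.05, with the median of the list (red bar) and the median (dashed) and middle 50% (grey) of all tested genes. The AFP control genes and the other oncofetal genes lie mostly to the right, with medians of 6.05 and 4.78, and the let-7 targets and gag-derived genes lie mostly to the left, with medians of -1.31 and -1.34.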

How the data were processed

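RNA captured on oligo(dT) was sequenced in 3 NC and 3 LINC00862 libraries with unique molecular identifiers in the adapters and a kit that marks strand. Per the submitters' processing notes, cutadapt 1.9, HISAT2 2.0.4, UMI-tools, StringTie 1.3.4d, DESeq2 and edgeR were used with hg38. Whether identifiers were collapsed or strand was used in counting is not given in the sources used here. The authors deposited raw gene counts and, beside them, FPKM per library, which they scaled by transcript length and depth. The members and lists were chosen with earlier results of these data known.

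Counts were fitted over the whole table with edgeR 4.0.16 (R 4.3.3; filterByExpr, TMM scaling, quasi-likelihood test, Benjamini-Hochberg adjustment at 0.05), with no covariate. FPKM gave levels, shares and ratios (pseudocount 0.1) and exact two-sided permutation tests (SciPy 1.17.1). The standard error is the log2 fold change divided by the root of F. Standard errors and their intervals include the spread between libraries, and floors (3 counts per library) cover counting error only. Alternatives were DESeq2 1.42.0, other scalings, no filter, limma 3.58.1 on log2 FPKM, a replicate block, a fold test, a stricter threshold and each library left out. Named were all members, and from each list at most the 3 largest rises and 3 largest falls among genes that passed with a mean of 1 FPKM in either group, plus genes at 0 or not past the test. MEST, ZHX2 and POU5F1 were named outside this rule. Sequences came from RefSeq GRCh38.p14 and GENCODE 29; RefSeq's promoter table gave windows for AFP, H19, IGF2BP2, IGF2BP3 and LIN28B. Some genes of the lists enter the counts and are not reported by name here.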

Additional observations from a re-analysis of the deposited data

How the results depend on the processing

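PEG10, IGF2BP1, IGF2BP2, AFP and SALL4 kept their direction and an adjusted p below 0.05 under all 14 alternatives, with log2 fold changes of -4.53 to -4.03, -13.6 to -1.80, -2.42 to -1.91, -7.74 to -0.14 and 0.40 to 4.16. The values nearest 0 came from log2(FPKM + 1), which compresses low genes by construction. H19 passed in 10 of 14 (0.23 to 2.12): it was at 1.64 with adjusted p = 0.112 against a fold change of 2, and from 1.33 to 2.12 with one library left out, so that the members called higher numbered 1 under that test and at an adjusted p of 0.01, and 1 to 2 with one library left out. IGF2BP3 turned to 0.065 with upper-quartile scaling and to 0.017 with the replicate block, and lay between -0.51 and 0.32 with one library left out, passing in none. The median of the imprinted neighbours turned to -0.031 with library size only. The difference in the share of IGF2BP1 was -22.5 points by counts, where the main value was -15.8. With pseudocounts of 0.01 and 1, the difference of the log2 ratio of IGF2 to H19 was -0.44 and -0.21 and that of AFP to ALB -10.1 and -1.45. That of PEG10 to SGCE was -2.73 with 1. The cause was not tested. Over all genes, 8010 passed against a fold change of 2, beside 13321 in the main fit. Replicate numbers did not pair the libraries (correlations of same-numbered deviations -0.11, -0.14 and -0.08), and the replicate block called 12098 genes and changed no call of a member. At 0 to 191 counts per library, AFP, H19, IGF2 and SALL4 limit what can be said of their size.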
